A study of Homo sapiens with 6 samples.

Results

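OE33 is an established line grown from a human adenocarcinoma of the lower esophagus, and the values below describe the mRNA pool of these cells when they were left untreated. The 3 control libraries of the series were used, of 6 libraries in all, and were chosen by their label alone. The study asked how such cells respond to a short reflux-like insult, and its other 3 libraries came from OE33 cells held for 20 min in supplement-free medium of pH 4.0 with 200 µM bile salts and harvested after 6 h in growth medium. Those libraries enter no value here. Control and exposed cells were OE33 cells kept in RPMI1640 with 10% fetal bovine serum and 1% antibiotics, at 37 °C with 5% CO2. No transgene or genetic change is named in the labels. Whether the control cells had a change of medium of their own was not stated. RNA was taken from independent biological replicates, with no batch given, and all of them are cultures of 1 cell line.

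Adenocarcinoma of the lower esophagus is known to arise in columnar epithelium that has replaced the squamous lining, a change called Barrett's metaplasia. Squamous cells are marked by keratins 5 and 14 and the factor TP63, columnar cells by keratins 8, 18 and 19, gastric mucous cells by trefoil factor TFF1 and mucins, and intestinal cells by CDX factors and digestive enzymes. OE33 is used widely as a model of tumours rich in the receptor tyrosine kinase HER2, encoded by *ERBB2*. Most, but not all, kinase receptors of this class bind a growth factor outside the cell. The signal is passed on through RAS and PI3K to transcription factors such as MYC and to cyclins.

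Control libraries 1, 2 and 3 held 23683950, 22145676 and 23612697 counts, of which protein-coding genes took 98.4%, 98.4% and 98.5%. At this depth 3 counts, the most that a count of 0 allows, corresponded to 0.127, 0.136 and 0.127 CPM, the count scaled to a library of 1000000 counts. Such limits cover counting error only. Levels are given as TPM, a relative transcript abundance, which is the count divided by the length of the gene's exons and scaled so that each library sums to 1000000, as mean ± SD over the 3 libraries. TPM is a share of the measured pool, so fewer cells of a type and less RNA per cell cannot be told apart. A gene was called detected when it reached 1 TPM in every library, which 10773 of 19951 protein-coding genes did, or 54.0%. Of these, 7576 reached 10 TPM, 1612 reached 100 TPM and 101 reached 1000 TPM in each library. Counts were 0 in all 3 for 5571 protein-coding genes, or 27.9%. No comparison between conditions was made, so no test was run and no p-value is given.

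The pool was led by a keratin, by mitochondrial transcripts and by genes of cytoskeleton and translation. *KRT19*, which encodes the simple-epithelial keratin 19, stood highest of all protein-coding genes, with 18319, 18663 and 16641 TPM in libraries 1, 2 and 3. The next places were held by mitochondrially encoded subunits of the respiratory chain, *MT-CO2* at 16433 ± 3020 TPM, *MT-CO1* at 16276 ± 1723 TPM and *MT-CO3* at 12525 ± 1891 TPM. Cytoplasmic actin *ACTB* followed at 9517 ± 482 TPM, and *MT-ATP6*, a subunit of the ATP synthase, at 8460 ± 1236 TPM. The chromatin architecture gene *HMGA1* reached 8055 ± 580 TPM (8087, 8619 and 7460), a level of the same order as the translation factor *EEF1A1* at 7836 ± 521 TPM. *TMSB10*, which encodes an actin-binding thymosin, had 8039 ± 280 TPM, and the ribosomal gene *RPL19* had 7712 ± 320 TPM. The 10 highest genes of each library, of any class, made up 11.3% ± 0.977 of its TPM, the 100 highest 31.2% ± 1.67 and the 1000 highest 64.0% ± 1.42. Without the length, *EEF1A1* held the top place at 12707 CPM and *KRT19* the next at 11384 CPM.

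All 78 cytosolic ribosomal protein genes were detected, with a median of 764 TPM against 3.04 TPM over all protein-coding genes and 24.3 TPM over those detected. They summed to 8.95% of the pool, and the 13 mitochondrially encoded mRNAs summed to 7.63%. The lowest ribosomal genes included *RPS10* at 1.55 ± 0.263 TPM and *RPL17* at 15.2 ± 1.13 TPM. The exons of *RPS10* and *RPL17* are in part also exons of the read-through genes *RPS10-NUDT3* and *RPL17-C18orf32*, which had 0 counts in every library. How reads shared between such genes were assigned is not given in the sources used here, so these low levels cannot be read as levels of the mRNA. All 19 housekeeping genes were detected, at a median of 200 TPM.

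Markers of columnar epithelium were high. All 20 genes of epithelial adhesion and polarity were detected, beside 54.0% of all protein-coding genes. Their median was 153 TPM, beside 3.04 TPM over all. *EPCAM*, an epithelial adhesion molecule, had 969, 977 and 977 TPM, nearly the same in the 3 libraries. The protease inhibitor gene *SPINT2* had 381 ± 8.0 TPM. *CLDN4*, a tight junction claudin, had 616, 633 and 878 TPM, so that library 3 stood apart from the other two. The adherens junction gene *CDH1*, E-cadherin, had 311 ± 20.6 TPM, and the lowest of the 20, the polarity gene *PATJ*, had 17.1 ± 3.17 TPM. Of 6 keratins of simple epithelia 5 were detected, and next to *KRT19* these were *KRT7* at 2902 ± 232 TPM, *KRT8* at 2553 ± 60.0 TPM, *KRT18* at 1960 ± 26.6 TPM and *KRT80* at 202 ± 52.4 TPM. The ranges of these 5 over the libraries did not overlap, so their order held in each library on this length. With the length of the longest transcript *KRT8*, at 4699 TPM, lay above *KRT7*, at 4414 TPM. *KRT20*, a keratin of intestinal and gastric surface cells, had 0 counts in all 3, which allows up to 0.264 TPM.

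Of 21 squamous markers 10 were detected, or 47.6% beside 54.0% of all protein-coding genes, and their median was 1.47 TPM beside 3.04 TPM over all. Several defining genes were at or near the counting limit. *KRT5*, the basal squamous keratin, had 1, 1 and 6 counts, and *TP63*, the factor that sets squamous identity, had 0, 5 and 3 counts. *KRT14*, the partner of *KRT5*, had 0.440 ± 0.245 TPM, and the suprabasal keratin *KRT4* had 0.254 ± 0.113 TPM. Cornulin, *CRNN*, had 0 counts in all libraries. Other genes of the list were clearly present. *KRT15*, a keratin of basal layers, had 48.3, 49.4 and 52.4 TPM and the desmosomal cadherin *DSC3* 22.7 ± 3.30 TPM. *KRT13*, a keratin of moist squamous surfaces, had 20.2 ± 2.45 TPM, the cornified envelope gene *SPRR3* 14.5 ± 4.21 TPM and the foregut factor *PAX9* 12.0 ± 1.60 TPM.

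Gastric and intestinal markers split unevenly. Of 20 gastric and foregut mucous genes, 9 were detected, or 45% beside 54.0% of all protein-coding genes, and 6 had 0 counts in every library. The median of this list was 0.723 TPM, beside 1.47 TPM for the squamous list and 3.04 TPM over all. *ANXA10*, an annexin of gastric epithelium, had 394 ± 27.9 TPM and *AGR2*, which encodes a disulfide isomerase of mucous cells, 120 ± 5.70 TPM. *PSCA*, a surface antigen of gastric epithelium, had 84.4, 85.3 and 59.3 TPM. *TFF1*, the trefoil peptide of gastric surface cells, had 65.7, 55.1 and 70.7 TPM, whereas *TFF2* of gland mucous cells had 2.03 ± 0.721 TPM and intestinal *TFF3* had 0 counts. The gland mucin *MUC6*, pepsinogen C (*PGC*), the proton pump subunit *ATP4B* and gastrokine 2 (*GKN2*) were also at 0 counts. Of 22 intestinal markers 2 were detected, or 9.09%, and 12 were at 0 counts. Among those detected was the transcription factor *CDX2*, with 22.9, 19.9 and 13.1 TPM, lowest in library 3. *CDX1*, the paralog of *CDX2*, had 0 counts, as had liver-intestine cadherin *CDH17*, the fatty acid binding gene *FABP1* and sucrase-isomaltase (*SI*), 3 genes of differentiated intestinal cells. Mucin genes were low as a group, with 4 of 14 detected, or 28.6% beside 54.0% of all protein-coding genes. Those detected were *MUC20* at 48.8 ± 1.35 TPM, *MUC1* at 11.8 ± 1.24 TPM, *MUC4* at 7.33 ± 1.95 TPM and *MUC5AC* at 2.95 ± 1.45 TPM. The level of *MUC20* is uncertain, since 42.8% of its exon bases are shared with another gene on the same strand.

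**Figure D1:**
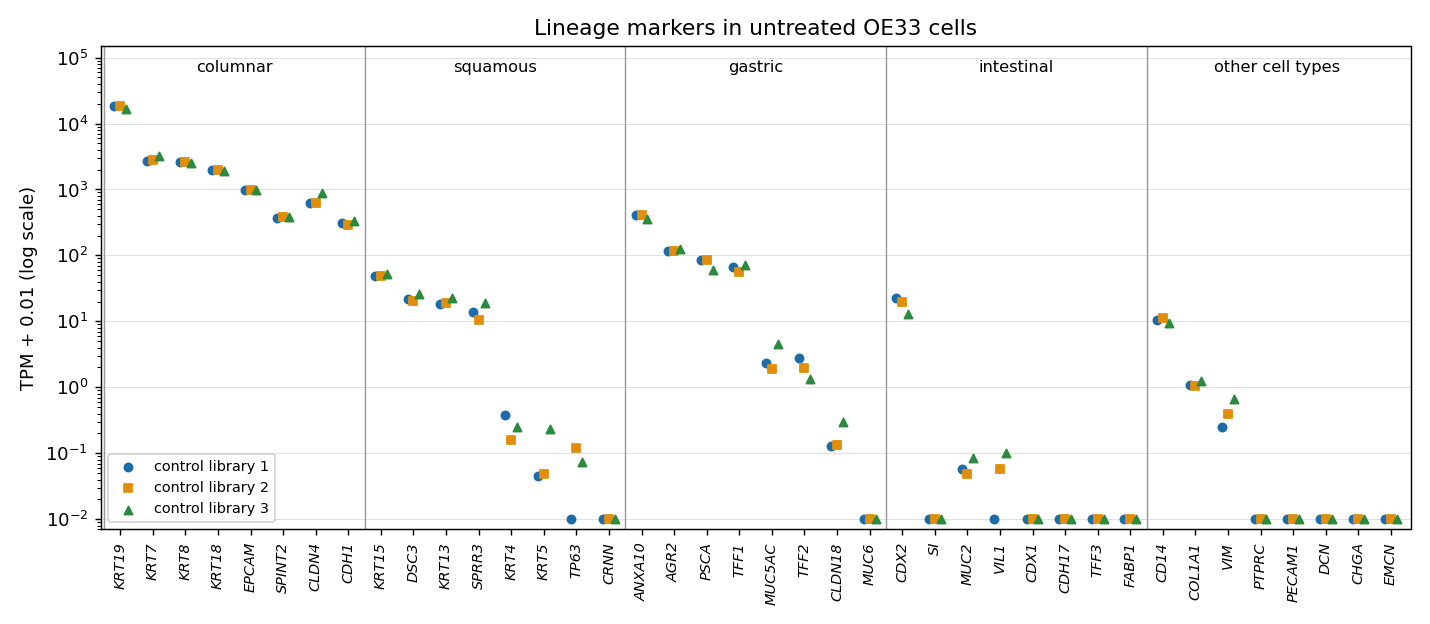
Level of 8 markers of each lineage in the 3 control libraries, as TPM + 0.01 on a log scale (y axis) by gene (x axis); each point is 1 library and points on the lowest line are 0 counts. The 8 columnar genes, which come from the upper end of their lists, lie between 290 TPM (*CDH1*, library 2) and 18663 TPM (*KRT19*, library 2), and every library of *CDX1*, *CDH17*, *TFF3* and *FABP1* lies at 0 counts.

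Of 27 transcription factors of endodermal epithelium 16 were detected, or 59.3% beside 54.0% of all protein-coding genes. *KLF5* had 243 ± 7.79 TPM and the epithelial ETS factor *EHF* 181 ± 4.99 TPM. *SOX9*, a factor of progenitor compartments, had 163, 160 and 176 TPM. *ELF3*, a further epithelial ETS factor, had 125 ± 14.4 TPM. Among paralogs the pool leaned to 1 member: *FOXA1* took 78.8% ± 3.52 of the FOXA sum and *GATA6* 64.7% ± 5.11 of the GATA sum, with *GATA4* holding the rest. *HNF4A*, a regulator of intestinal and hepatic genes, had 0.0783 ± 0.0790 TPM (8, 2 and 1 counts) against 5.36 ± 0.708 TPM for *HNF4G*. Position in this order was often shared, since 10 of 15 neighbouring pairs had ranges that overlapped between libraries.

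Markers of other cell types were at or near 0 apart from *CD14*. Of 10 fibroblast markers 1 was detected, the collagen gene *COL1A1* at 1.07, 1.03 and 1.22 TPM, and 6 were at 0 counts, among them *COL1A2*, *DCN* and *POSTN*. Of 10 immune markers 1 was detected, *CD14*, a co-receptor for bacterial lipopolysaccharide, at 10.5, 11.4 and 9.32 TPM, while the leukocyte gene *PTPRC* and the T cell genes *CD3E* and *CD3D* had 0 counts. The macrophage gene *CD68* had 2, 0 and 5 counts, but 81.7% of its exon bases are shared with another gene on the same strand, so its level is uncertain. None of 8 endothelial or 10 neuroendocrine markers was detected, and *PECAM1* and *CHGA* had 0 counts. The summed level was 1.16 ± 0.0989 TPM for the fibroblast list and 10.8 ± 0.804 TPM for the immune list, nearly all of the latter from *CD14*. It was 0.155 ± 0.166 TPM for the endothelial list and 0.537 ± 0.518 TPM for the neuroendocrine list. Of 12 genes of mesenchymal transition 4 were detected, or 33.3% beside 54.0% of all protein-coding genes. These were *FOXC2*, a forkhead factor, at 69.9 ± 4.34 TPM, fibronectin (*FN1*) at 60.2 ± 9.60 TPM and the repressors *SNAI2* at 13.8 ± 4.85 TPM and *SNAI1* at 6.36 ± 0.583 TPM. Vimentin, *VIM*, the filament protein of mesenchymal cells, stayed at 0.422 ± 0.209 TPM (8, 12 and 21 counts).

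Receptor tyrosine kinases were led by *MET*, the receptor for hepatocyte growth factor. It had 1821, 1706 and 1992 TPM and stood in place 47 among protein-coding genes. Of 51 kinase receptors 23 were detected, or 45.1% beside 54.0% of all protein-coding genes. In all libraries 17 of the 51 had 0 counts, as had 27.9% of all protein-coding genes. *EPHA2*, an ephrin receptor, had 410, 401 and 510 TPM. *ERBB2* had 337, 342 and 357 TPM, and its range did not overlap that of *EPHA2* above it or of the collagen receptor *DDR1* below it. *DDR1* at 247 ± 8.20 TPM and the ephrin receptor *EPHB4* at 246 ± 9.74 TPM could not be ordered. With the length of the longest transcript *ERBB2* had 485 TPM, *DDR1* 354 TPM and *EPHA2* 301 TPM, so the place of *EPHA2* depends on the length. *EGFR*, the receptor for EGF, had 96.2, 89.1 and 130 TPM, with library 3 above the other two. In all, 10 of 22 neighbouring pairs in the order had overlapping ranges. Within the ERBB family *ERBB2* held 71.3% ± 2.64 of the summed TPM, *EGFR* 21.5% ± 2.96 and *ERBB3*, the kinase-poor partner of HER2, 7.17% ± 0.358, while *ERBB4* had 0 counts. *FGFR4* held 49.5% ± 6.32 of the FGF receptor sum at 16.0 ± 1.39 TPM. *INSR*, the insulin receptor, had 4, 5 and 1 counts, whereas *IGF1R*, the receptor for insulin-like growth factor, had 8.74 ± 1.92 TPM. *KIT*, *RET* and *ALK* are targets of kinase drugs in other tumours. *KIT* and *RET* had 0 counts and *ALK* had 0, 2 and 2.

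**Figure D2:**
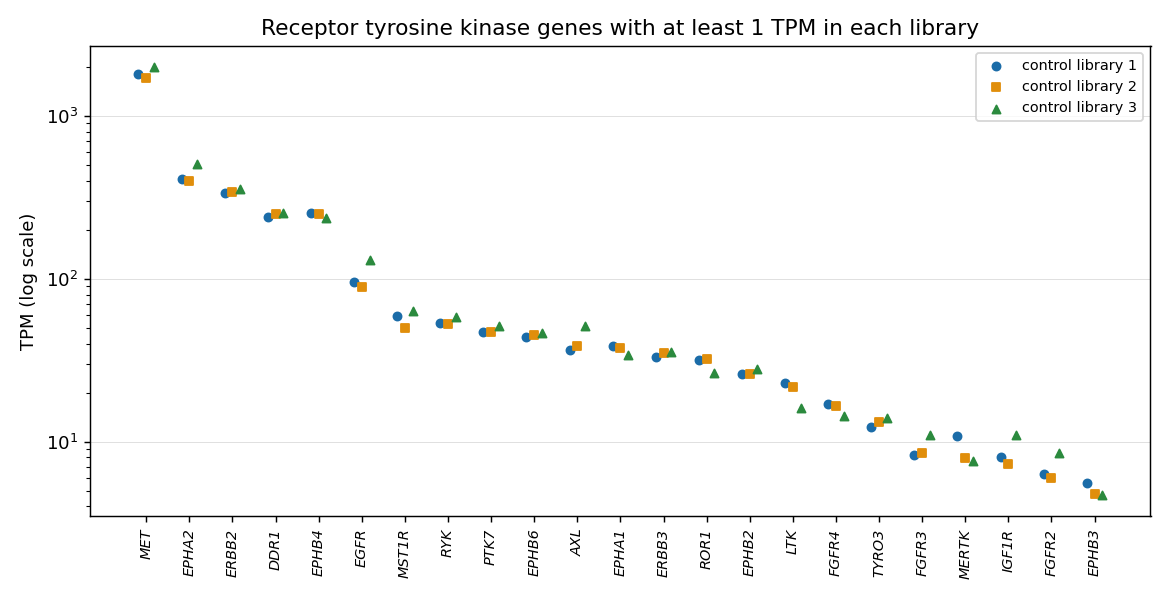
Level of the 23 detected receptor tyrosine kinase genes, in TPM on a log scale (y axis), ordered by mean (x axis); each point is 1 of the 3 control libraries. *MET* lies between 1706 and 1992 TPM, above *EPHA2* at 401 to 510 TPM in every library.

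The ligand genes expressed by the same cells included several for EGFR but not the ligand of MET. Of 30 growth factor genes 16 were detected, beside 54.0% of all. Midkine, *MDK*, a heparin-binding factor, had 783, 836 and 914 TPM. The EGFR ligands amphiregulin and epiregulin stood at matching levels, *AREG* with 351, 351 and 456 TPM and *EREG* with 348, 337 and 429 TPM, each highest in library 3. The stress cytokine gene *GDF15* had 322 ± 25.2 TPM and *TGFA*, another EGFR ligand, 146 ± 18.5 TPM. *HBEGF*, a further ligand of this receptor, had 6.03 ± 1.11 TPM. *HGF*, the MET ligand, had 0 counts in every library, which allows up to 0.0496 TPM. *IGF1* had 0 counts too, but 82.4% of its exon bases lie opposite another gene and its level is uncertain, since the strand setting is not given.

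Downstream of these receptors all 18 genes of the RAS, RAF and PI3K list were detected, beside 54.0% of all protein-coding genes. Their median was 43.4 TPM, beside 3.04 TPM over all. *NRAS* had 117 ± 6.10 TPM and *HRAS* 109 ± 1.91 TPM. With the length of the longest transcript the lead between *NRAS* and *HRAS* turned. The kinase gene *MAP2K1* had 102 ± 3.0 TPM and *RHEB*, which encodes a GTPase that activates mTOR, 95.1 ± 2.94 TPM. *AKT1* had 48.4 ± 2.89 TPM and *AKT2* 31.0 ± 1.63 TPM, both kinases of the PI3K pathway.

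Genes next to *ERBB2* on chromosome 17 were varied in level. Of 21 neighbours, *ERBB2* included, 14 were detected, or 66.7% beside 54.0% of all protein-coding genes. The proteasome subunit gene *PSMD3* had 1418, 1432 and 1448 TPM, above *ERBB2* itself at 345 ± 10.3 TPM. *MIEN1*, a small membrane-linked protein gene, had 337 ± 8.30 TPM. *GRB7*, an adaptor that binds HER2, had 284, 289 and 190 TPM, so that library 3 was the lowest by a wide margin. *MED24*, a subunit of Mediator, had 243 ± 6.52 TPM. Genes in the same stretch with tissue-bound expression were near the counting limit, with *NEUROD2* at 0 counts in all libraries and *PPP1R1B* at 0, 2 and 0. The DNA copy number was not measured.

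Among nuclear oncogenes and cell cycle drivers 18 of 21 were detected, or 85.7% beside 54.0% of all protein-coding genes. The median of this list was 54.1 TPM, beside 3.04 TPM over all. *MYC* had 490, 490 and 552 TPM and made up 99.7% ± 0.122 of the MYC family sum. Cyclin D1, *CCND1*, had 288, 279 and 390 TPM and held 85.4% ± 1.42 of the D-type cyclins, with *CCND3* at 54.1 ± 6.61 TPM and *CCND2* at 0 counts. The G1 kinase gene *CDK4* had 186 ± 12.3 TPM and the DNA topoisomerase of dividing cells, *TOP2A*, 183 ± 14.8 TPM. Of 29 tumour suppressor genes 28 were detected, or 96.55%. *CDKN2A*, which encodes the CDK4 inhibitor p16 and ARF, had 474, 446 and 426 TPM and led the list. *SMAD3*, a transducer of TGF-beta, had 103 ± 4.56 TPM, *CDKN1A*, the inhibitor p21, 74.6, 78.2 and 114 TPM, and the TGF-beta receptor gene *TGFBR2* 81.9 ± 11.4 TPM. Of 23 tumour antigens and drug targets 16 were detected, or 69.6% beside 54.0% of all protein-coding genes. Among them were the adhesion antigens *CEACAM6*, with 522, 508 and 471 TPM, and *MSLN*, mesothelin, at 368 ± 17.7 TPM. RNA levels alone show neither sequence variants nor protein.

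Nuclear receptors are transcription factors that bind steroids, fatty acids, bile acids or vitamins. Of 48 genes 25 were detected, beside 54.0% of all, at a median of 2.28 TPM over the list. The orphan receptors *ESRRA* at 175 ± 8.44 TPM and *NR2F6* at 129 ± 11.8 TPM were highest, followed by *PPARD*, a fatty acid receptor, with 83.9, 79.2 and 122 TPM, and *NR2F2* at 86.4 ± 14.8 TPM. The progesterone receptor gene *PGR* had 0 counts. Of 26 genes of bile acid sensing and transport 10 were detected, or 38.5% beside 54.0% of all protein-coding genes, and 10 had 0 counts. *NR1H4*, the nuclear bile acid receptor FXR, had 0 counts in each library, which allows up to 0.134 TPM, and the membrane receptor gene *GPBAR1* had 3, 1 and 0 counts. Highest in the list was *SLCO4A1*, an organic anion transporter, with 240, 234 and 246 TPM. The exporters *ABCG2* and *ABCC3* had 38.3 ± 3.08 and 34.6 ± 0.241 TPM, and the vitamin D receptor *VDR*, which also binds lithocholic acid, had 33.1 ± 0.444 TPM.

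Cytokine and death receptors were detected in 27 of 41 cases, or 65.85% beside 54.0% of all protein-coding genes. *TNFRSF12A*, the receptor for TWEAK, had 822, 892 and 1101 TPM. *TNFRSF21*, death receptor 6, had 429 ± 73.3 TPM, followed by the TNF receptor gene *TNFRSF1A* at 145 ± 9.60 TPM and the lymphotoxin receptor *LTBR* at 114 ± 2.58 TPM. Of 35 receptors and ligands of TGF-beta, Wnt and Notch signalling 27 were detected, or 77.1%. The Wnt co-receptor *LRP5* had 133 ± 9.43 TPM and the Notch ligand *JAG1* 122 ± 11.03 TPM, both above the receptors *TGFBR2* at 81.9 ± 11.4 and *NOTCH3* at 47.3 ± 2.21 TPM. *LGR5*, a stem cell marker of the intestine, had 0 counts.

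Of 31 genes of glycolysis and lactate handling 20 were detected, or 64.5% beside 54.0% of all protein-coding genes, at a median of 81.2 TPM. *GAPDH* had 5147, 4957 and 4676 TPM, *ENO1* 1771 ± 69.8 TPM, the triose isomerase gene *TPI1* 1561 ± 112 TPM and pyruvate kinase *PKM* 1517 ± 31.6 TPM. *LDHA*, the lactate dehydrogenase subunit that favours lactate, had 1449 ± 102 TPM and held 94.7% ± 0.177 of the sum with *LDHB*. *SLC2A1*, which encodes the glucose transporter GLUT1, had 99.9% of the sum with *SLC2A3*. *PFKP* held 75.7% ± 0.725 of the phosphofructokinase subunits. Hexokinase was shared, with *HK2* at 51.2% ± 1.12 and *HK1* at the rest, and the longest-transcript length turned that lead. *ALDOC* appeared above *ALDOA*, 107 ± 24.3 against 58.2 ± 6.04 TPM, but 53.5% of the exon bases of *ALDOA* are shared with another gene and its level is uncertain. The lactate transporters *SLC16A3* and *SLC16A1* took 51.9% ± 2.30 and 48.1% ± 2.30.

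Of 14 genes of gluconeogenesis and glycogen 9 were detected, or 64.3% beside 54.0% of all protein-coding genes. The gluconeogenic genes *PCK1* and *G6PC* had 0 counts, and *PCK2*, the mitochondrial form, had 37.2 ± 9.88 TPM. *PYGB*, brain-type glycogen phosphorylase, had 1591, 1587 and 1449 TPM and was followed by the liver-type gene *PYGL* at 151 ± 2.33 TPM. In the pentose phosphate pathway, which makes ribose and NADPH, 8 of 9 genes were detected, or 88.9%. *TALDO1* led them at 474 ± 8.04 TPM. Of 32 genes of pyruvate entry and the citric acid cycle 30 were detected, or 93.75%, at a median of 64.5 TPM. They were led by the malate dehydrogenase *MDH2* at 543 ± 30.2 TPM and fumarase, *FH*, at 269 ± 18.5 TPM.

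**Figure D3:**
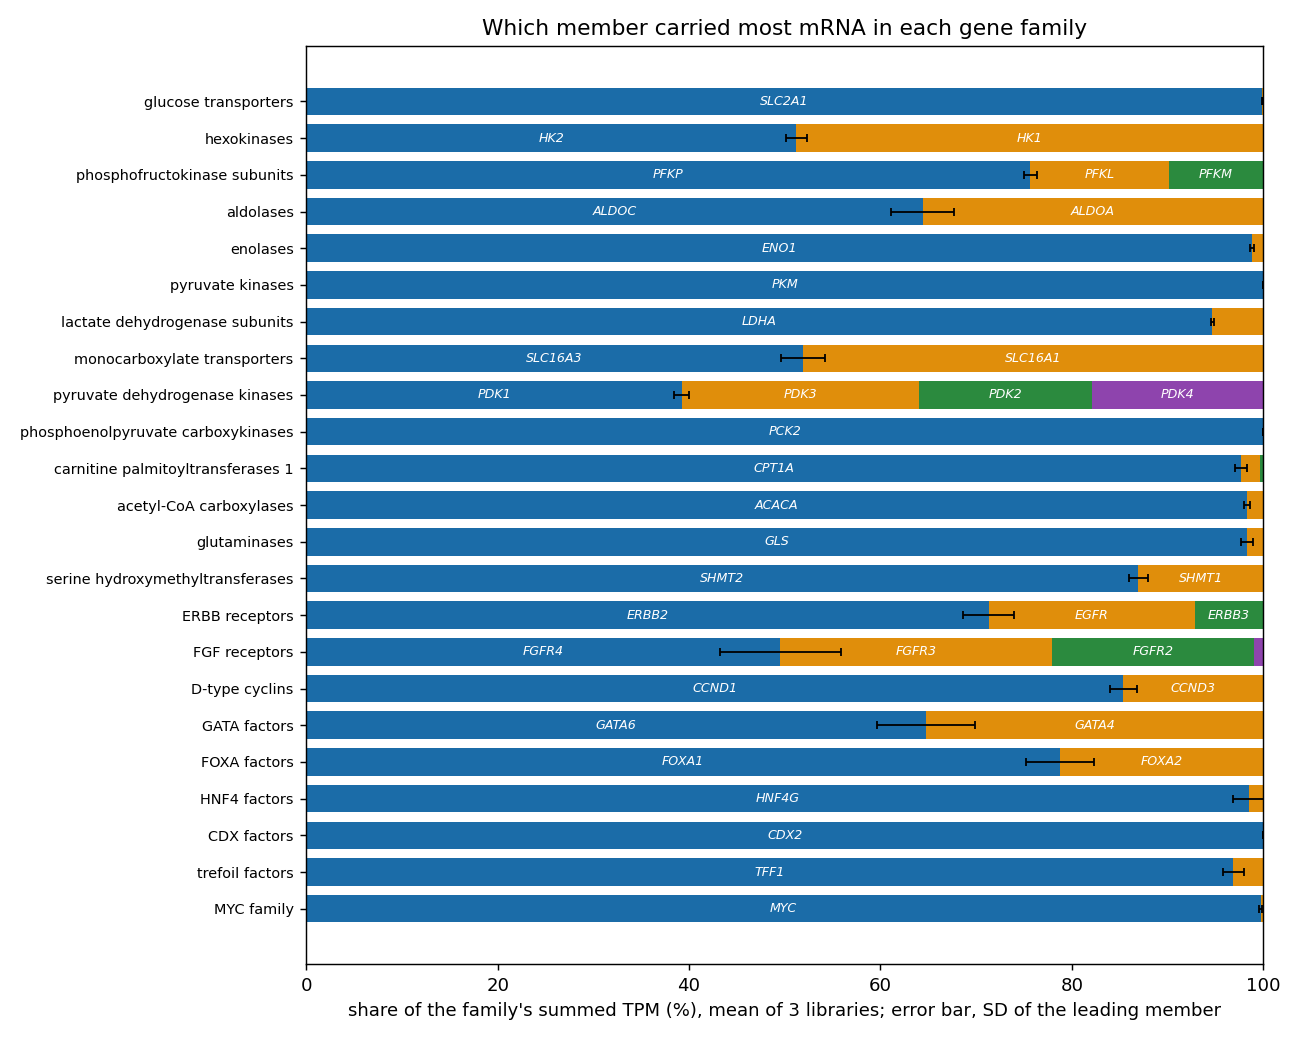
Share of each member in the summed TPM of its gene family (x axis, %, mean of 3 control libraries) for 23 families (y axis); colours rank the members by share and the black bar is the SD of the leading member's share. *LDHA* takes 94.7% of its pair, whereas *HK2* takes 51.2% and *PDK1* 39.2%.

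Lipid genes were broadly present. Of 17 genes of fatty acid synthesis 15 were detected, or 88.2% beside 54.0% of all protein-coding genes. They were led by the desaturase *SCD* with 671, 669 and 455 TPM and fatty acid synthase, *FASN*, with 351, 334 and 284 TPM. *ACLY*, which makes cytosolic acetyl-CoA, had 239 ± 9.91 TPM. *ELOVL5*, an elongase, had 3, 0 and 4 counts. Of 17 genes of fatty acid oxidation and ketone bodies 13 were detected, or 76.5%, led by the hydratase *ECHS1* at 601 ± 25.9 TPM. *CPT1A*, the gate to mitochondrial oxidation, had 36.2 ± 7.56 TPM and 97.7% ± 0.596 of its family. Of 21 genes of sterol synthesis and uptake 20 were detected, or 95.2%, at a median of 86.0 TPM beside 3.04 TPM over all. *SQLE*, which opens the sterol-specific steps of cholesterol synthesis, had 216, 200 and 149 TPM. *DHCR7*, which closes them, had 222, 208 and 135 TPM.

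In amino acid metabolism 23 of 25 genes were detected, or 92% beside 54.0% of all protein-coding genes. *ODC1*, the entry to polyamine synthesis, had 682, 662 and 758 TPM, and *SLC7A5*, the leucine transporter LAT1, had 631, 608 and 493 TPM. *GOT2* and *GLUD1*, which link glutamate to the citric acid cycle, had 465 ± 28.6 and 373 ± 28.7 TPM. *PHGDH*, the entry to serine synthesis, had 9.78 ± 2.22 TPM, far below the next enzyme, *PSAT1*, at 248 ± 50.5 TPM. Asparagine synthetase, *ASNS*, had 1.83, 1.24 and 0.646 TPM, and 44.6% of its exon bases are shared with another gene. Of 30 oxidoreductase and glutathione genes 24 were detected, or 80%. They were led by the glutathione transferase *GSTP1* at 1430.0 ± 19.8 TPM and thioredoxin (*TXN*) at 1281 ± 86.1 TPM. Peroxiredoxin *PRDX1* had 772 ± 38.8 TPM and *GPX1* 755 ± 2.93 TPM. *GSTA1* and *GSTM1*, transferases of the same class of reaction, had 0 counts. Of 28 drug metabolism genes 11 were detected, or 39.3% beside 54.0% of all protein-coding genes. Among those detected were the epoxide hydrolase *EPHX1* at 138 ± 10.5 TPM and *CYP24A1*, which inactivates vitamin D, at 73.1 ± 5.05 TPM. Of 22 genes that move acid, bicarbonate or protons 10 were detected, or 45.45% beside 54.0% of all protein-coding genes. The anion exchanger *SLC4A2* had 122 ± 7.10 TPM, and the pump subunit gene *ATP12A*, the channel gene *CFTR* and the carbonic anhydrase gene *CA4* had 0 counts.

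The 3 control libraries were not equally alike. Among 9916 protein-coding genes with a mean of at least 100 counts, 732 differed at least 1.5-fold between the highest and the lowest library, or 7.38%, and 601 of these, 82.1%, were highest in library 3, beside 59.2% of all 9916 genes. Libraries 1 and 2 were 1.5-fold apart for 72 genes, libraries 1 and 3 for 495 and libraries 2 and 3 for 477. The common biological coefficient of variation of edgeR, the spread beyond counting error, was 11.05%, and 6.33% without library 3, and 62 genes in place of 732 then passed 1.5-fold, with the mean of 100 counts taken over libraries 1 and 2 in place of all 3. Part of the direction came with the scale. TPM put the median tested gene 0.0993 higher in log2 in library 3 than in the mean of libraries 1 and 2. With the TMM factors of edgeR this was -0.0142 and the number of genes 557. The share of these genes highest in library 3 was 58.9%, beside 37.1% of all 10773 detected protein-coding genes. Of the same detected genes, a different set from the 9916 tested, 58.1% were highest in library 3 on the TPM scale. Mitochondrially encoded mRNAs took 2.10%, 2.17% and 1.64% of the counts of libraries 1, 2 and 3. With TPM computed over protein-coding genes without them, the shift was 0.0673 and the number of genes 657. The share highest in library 3 was then 76.3%, beside 51.8% of all detected protein-coding genes. Spread differed with level as well, with 19.3% of genes of 1 to 10 TPM, 4.92% of those of 10 to 100 TPM and 1.69% of those of 100 TPM and over past 1.5-fold. Counting error differed too, with a median of 6.56%, 3.20% and 1.47% of the level in these classes. How much of the difference in spread came from counting error was not tested.

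Of the 10 genes with the largest coefficients of variation at 10 TPM and over, 9 were highest in library 3. This share was near that of all 732 genes past 1.5-fold, of which 82.1% were highest there. *CXCL8*, interleukin 8, had 10.4, 11 and 63.6 TPM. *CXCL1*, a neutrophil chemokine, had 33.3, 30.8 and 115 TPM and *CXCL2*, its relative, 7.29, 5.85 and 18.9 TPM. Libraries 1 and 2 lay together for these 3 genes, and library 3 stood alone above them. *CTGF*, a matrix-associated factor, had 5.20, 6.04 and 22.8 TPM. *EDN1*, endothelin 1, had 11.1, 10.9 and 44.6 TPM, and *THBS1*, thrombospondin 1, had 29.7, 22.9 and 78.6 TPM. Library 3 was highest too for *SERPINB2*, plasminogen activator inhibitor 2, at 13.7, 13.8 and 44.4 TPM and for the kinase gene *MAP3K14* of the NF-kB pathway at 8.23, 10.5 and 33.3 TPM. The exception was *EIF3CL*, with 9.47, 163 and 82.0 TPM, a near copy of the translation factor gene *EIF3C*, with 55.2, 17.6 and 36.9 TPM. Reads cannot be placed firmly between such copies, yet their sum, 64.6, 181 and 119 TPM, was uneven too. Without library 3 the means of *CXCL8* and *CXCL1* were 10.7 and 32.1 TPM, against 28.3 and 59.8 TPM with it.

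**Figure D4:**
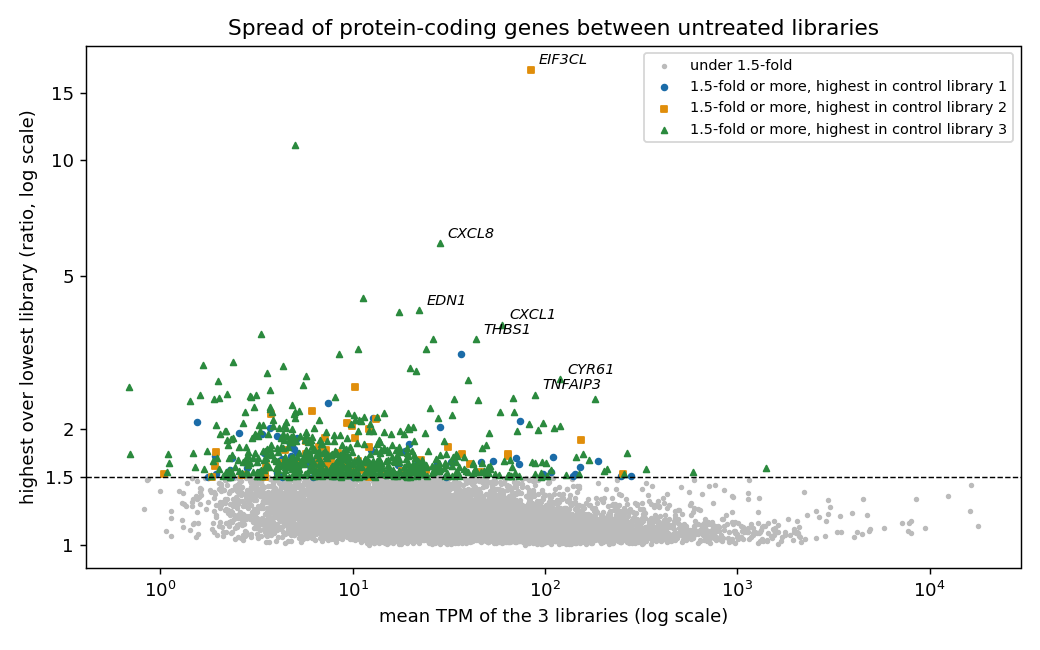
Highest over lowest control library (y axis, ratio on a log scale) against mean TPM (x axis, log scale) for 9916 protein-coding genes with a mean of at least 100 counts; coloured points are the 732 genes at or above 1.5-fold (dashed line), coloured by the library in which they were highest. Of these, 601 are highest in library 3, and *CXCL8*, *EDN1*, *CXCL1* and *THBS1* are among the most uneven.

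Library 3 was also low for whole gene groups. Of the 20 detected sterol genes 19 were lowest in library 3, beside 21.6% of all detected protein-coding genes on the TPM scale, and 19 were so with TMM factors, beside 41.1% of all. *FDFT1*, squalene synthase, had 175, 170 and 110 TPM, and *INSIG1*, a sensor that holds back sterol synthesis, 62.3, 60.8 and 37.7 TPM. In the serine and glutamine group 17 of 23 were lowest in library 3, and 19 with TMM factors. *SLC1A5*, a glutamine transporter, had 390, 373 and 305 TPM. For glycolysis these numbers were 15 and 18 of 20, and for ribosomal proteins 52 and 69 of 78. They were 13 and 24 of 30 for the citric acid cycle and 6 and 12 of 13 for fatty acid oxidation. Mitochondrially encoded mRNAs had 12 and 13 of 13. Reference genes shared this, with 8 of 19 housekeeping genes lowest in library 3, and 14 with TMM factors. Not all lists did so, since 1 of 10 detected squamous markers was lowest in library 3 on either scale. Of 18 oncogene and cell cycle genes 15 were highest in library 3 on the TPM scale, beside 58.1% of all detected protein-coding genes, and 9 with TMM factors, beside 37.1%. *MKI67*, a marker of cycling cells, had 84.1, 83.8 and 136 TPM. This was not particular to growth drivers. Of 28 detected tumour suppressor genes, 20 were highest in library 3 on the TPM scale and 16 with TMM factors.

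The start regions of genes at different levels were compared by sequence. Housekeeping promoters are known to be rich in CG dinucleotides, and promoters with the TATAAA box are known for tissue-bound or inducible genes. RefSeq promoters on GRCh38.p14 matched 14887 of 19908 nuclear protein-coding genes by symbol, and the 10988 genes with 1 listed start were used, each with the 250 bases before the start. The sequences below show both ends of the range, on the strand of the gene from 5′ to 3′, with CG dinucleotides and TATAAA in capitals and the rest in lower case. *MET* (chr7:116671946-116672195, + strand) stands for a highly expressed gene with 24 CG and no TATAAA in this window. Its listed start lay 196 bases from the nearest GENCODE start, against 0 to 2 bases for the other genes shown. *AREG* (chr4:74444886-74445135, +) and *EREG* (chr4:74364895-74365144, +) are the paired EGFR ligands, with 23 and 11 CG and a TATAAA that begins 29 and 32 bases before the start. *CRNN* (chr1:152414264-152414513, − strand) and *SI* (chr3:165078497-165078746, −) are squamous and intestinal genes at 0 counts, both with 0 CG, *CRNN* with a TATAAA 30 bases before the start. They are not typical of low genes, since 299 of 3787 windows of genes under 0.1 TPM had 0 CG and the median was 6.
MET: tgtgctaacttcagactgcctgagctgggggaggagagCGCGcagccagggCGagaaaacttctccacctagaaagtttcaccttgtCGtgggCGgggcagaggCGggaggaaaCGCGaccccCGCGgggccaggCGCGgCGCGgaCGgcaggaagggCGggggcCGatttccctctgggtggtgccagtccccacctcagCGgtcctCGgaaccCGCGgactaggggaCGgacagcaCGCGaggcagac
AREG: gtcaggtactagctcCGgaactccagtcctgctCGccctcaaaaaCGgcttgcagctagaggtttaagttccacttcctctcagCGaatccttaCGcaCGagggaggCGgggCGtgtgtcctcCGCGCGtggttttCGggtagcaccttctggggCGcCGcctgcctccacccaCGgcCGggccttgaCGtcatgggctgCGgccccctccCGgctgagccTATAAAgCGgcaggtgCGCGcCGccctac
EREG: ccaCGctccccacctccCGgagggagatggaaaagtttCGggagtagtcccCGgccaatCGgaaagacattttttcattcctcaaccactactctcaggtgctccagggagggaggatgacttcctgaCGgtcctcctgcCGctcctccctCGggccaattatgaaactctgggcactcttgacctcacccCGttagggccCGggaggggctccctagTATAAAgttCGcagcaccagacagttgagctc
CRNN: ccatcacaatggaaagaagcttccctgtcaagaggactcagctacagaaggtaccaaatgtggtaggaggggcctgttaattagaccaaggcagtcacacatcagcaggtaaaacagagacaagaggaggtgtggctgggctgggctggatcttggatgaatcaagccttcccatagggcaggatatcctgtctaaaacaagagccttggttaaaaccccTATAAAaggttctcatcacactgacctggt
SI: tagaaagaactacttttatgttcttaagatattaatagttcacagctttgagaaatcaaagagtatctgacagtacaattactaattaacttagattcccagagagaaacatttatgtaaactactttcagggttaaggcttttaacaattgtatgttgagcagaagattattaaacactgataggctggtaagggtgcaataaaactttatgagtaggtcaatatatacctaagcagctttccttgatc

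CG content differed across the level classes. The median number of CG dinucleotides in the window was 6 for genes under 0.1 TPM (3787 genes), 14 at 0.1 to 1 TPM (916), 20 at 1 to 10 TPM (1755), 22 at 10 to 100 TPM (3518) and 24 at 100 TPM and over (1012). At least 10 CG were found in 37.8% of the lowest class and in 95.1% of the highest (95% Wilson interval 93.6 to 96.2), and in 69.8% of all 10988 windows. The interval takes genes as independent draws and covers neither the spread between libraries nor the choice of start. TATAAA on the gene's strand in the last 50 bases was found in 4.49% of all windows, in 8.87% of genes under 0.1 TPM, in 1.31% at 10 to 100 TPM and in 3.56% at 100 TPM and over. On either strand of the whole window it was found in 9.85% of all. GGGCGG, the core of the site of the SP factors, which itself holds a CG, was found on either strand in 34.7% of the lowest class, 76.2% of the highest and 57.8% of all. Whether a listed start is the one used in OE33 cells was not measured, and the 5 genes shown were chosen with their values known.

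**Figure D5:**
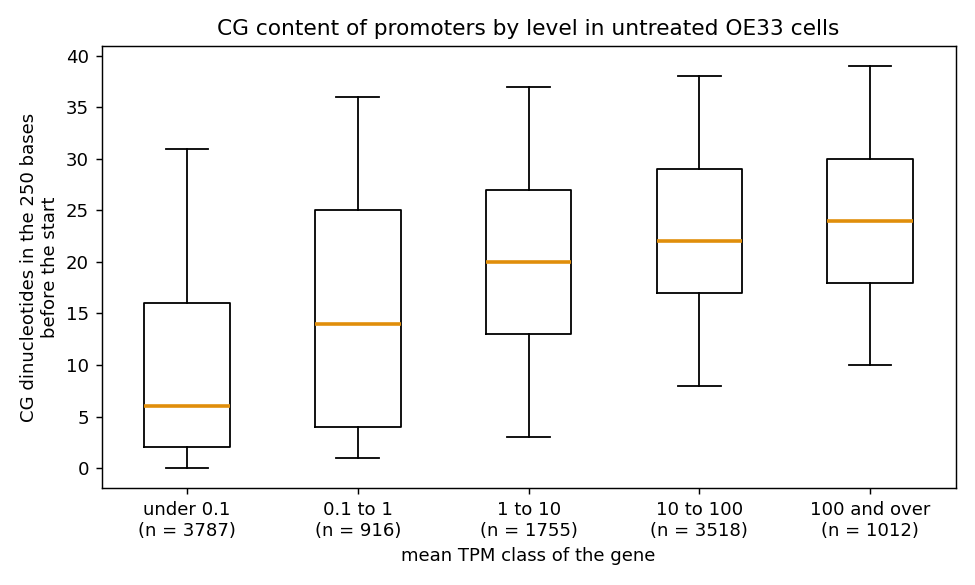
Number of CG dinucleotides in the 250 bases before the start (y axis) by mean TPM class in untreated OE33 cells (x axis); box, quartiles; orange line, median; whiskers, central 90% of genes. The median goes from 6 in the class under 0.1 TPM to 24 in the class of 100 TPM and over.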

How the data were processed

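Polyadenylated RNA of OE33 cells was sequenced in bulk, and the 3 libraries labelled as untreated control were described. The authors deposited raw counts per gene, whole numbers with no normalization, beside gene identifiers, names, biotypes and lengths. HISAT2 2.0.5, featureCounts 1.5.0-p3 and GRCh38 are named in the submitters' processing notes, per the labels. Which annotation was used, how strand was treated and where reads that match several genes went is not given in the sources used here, although all 58735 deposited lengths equalled the union of exons in GENCODE 29.

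From these counts CPM and TPM were computed per library over all genes. Exon-union length lowers the TPM of genes with long rare exons, so the longest basic transcript was tried as another length. Detection took 1 TPM in each library, and spread took a mean of 100 counts and a ratio of 1.5 between libraries. TMM factors and the biological coefficient of variation came from edgeR 4.0.16 and size factors from DESeq2 1.42.0, in R 4.3.3, and the steps were tested on simulated data. Zero counts are quoted with the limit of 3 counts.

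The 37 gene lists and 26 families were chosen with earlier results of these data known. Named by rule were the 10 highest genes, up to 4 top members of each list, all family members, the 10 largest coefficients of variation at 10 TPM and over, and 10 fixed genes, apart from some genes that are not reported here; others were chosen after their values were seen. Single genes' levels with the longest transcript, and the counts of genes highest or lowest in library 3 under other scalings, were added after seeing the data. *CBLIF* and *GSTT1* were not found in the table by name.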

Additional observations from a re-analysis of the deposited data

How the results depend on the processing

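No paired analysis was possible because a single group was described and no result came from a test. The number of protein-coding genes detected lay between 10841 and 10874 with 1 library left out, and the number of list genes at detected levels (list levels) between 567 and 570, against 10773 and 563 with all 3. The share of the pool in the 100 highest genes, 31.2% on the TPM scale, was 21.8% as CPM, 27.4% over protein-coding genes without the mitochondrially encoded ones, and 30.5% to 32.1% with 1 library left out. Genes with a 1.5-fold spread numbered 732, but 4449 with no minimum count, 271 with a mean of 500 counts, 98 at 2-fold, and 62 to 499 with 1 library left out, the 62 without library 3. The coefficient of variation was 6.33% to 13.0% with 1 library left out. The share of genes of 100 TPM and over with at least 10 CG was 91.9% when every gene entered with its first listed start, an alternative added after seeing the data. The longest basic transcript as length turned the leader of 3 families. The log2 ratio HK2 over HK1 became -0.51, the log2 ratio PDK1 over PDK3 became -0.63 and the log2 ratio NRAS over HRAS became -0.49. It moved 22.4% of detected genes and 46 of 215 named genes by over 1.5-fold, and 8 of the 10 highest genes were also among the 10 highest with it. Low-count genes are limited by depth, since 3 counts give at most 0.136 CPM.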

Other observations

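Protein-coding genes made up 94.1% ± 0.186 of the pool by TPM. The long noncoding RNA *H19*, an imprinted transcript of fetal tissues, had 559 ± 145 TPM. Processed pseudogenes, copies of mRNAs in the genome, held 2.48% ± 0.0417 of TPM but 0.44% of counts. Among them *RPS2P5* had 2173 ± 114 TPM. *RPL9P9*, counted in the separate class of transcribed processed pseudogenes, had 2168 ± 233 TPM, above its parent gene *RPL9* at 178 ± 12.9 TPM. Such copies share sequence with their parents, and the placement of reads between them was not tested.

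Detection followed how much of a gene's exons belonged to another gene too. Of 475 protein-coding genes with at least 90% of exon bases shared on the same strand 0 were detected, of 433 with 50 to 90% shared 66 (15.2%), of 1031 with 10 to 50% shared 538 (52.2%), and of 18012 with under 10% shared 10169 (56.5%). Of 153 genes with under 10% shared on the same strand and at least 50% covered by a gene on the opposite strand 63 were detected (41.2%). A level of 0 in the first of these classes was therefore not read as absence of the mRNA.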
